A study of Mus musculus with 4 samples.

Results

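The 5 genes of the SIBLING family (small integrin-binding ligand, N-linked glycoproteins) were described: Dspp, Dmp1, Ibsp, Mepe and Spp1. They were found in the deposited count table by their Ensembl gene IDs, as 5 of 55487 genes, and all 5 passed the filter on low counts. The 4 libraries hold polyadenylated RNA of cells from mouse lower incisors, at postnatal day 30, of a strain given as C57. The 2 knockout libraries (KO 1 and KO 2) came from mice of genotype Ptipf/f;Sp7-cre, and the 2 control libraries (WT 1 and WT 2) from Ptipf/f mice. Both groups thus carry floxed Ptip alleles, and the KO group alone carries the Cre transgene, so loss of Ptip and presence of Cre cannot be told apart. The promoter of Sp7, a gene active in the osteoblast and odontoblast lineages, drives Cre, so the targeted cells are those in which it is or has been active. FACS kept cells lacking CD45, Ter119 and Tie2, which are surface proteins of blood and endothelial cells, and selected for no marker of progenitors. The labels call them dental progenitor cells from dental pulp and do not say whether animals were pooled or whether the libraries of a group came from separate animals, so p-values measure only the spread between these libraries. The series title places Ptip in tooth development.

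SIBLING proteins are acidic phosphoproteins that bone and tooth cells secrete into the matrix before and during its mineralization. They bind calcium and hydroxyapatite, and through an Arg-Gly-Asp site they bind integrins on cells. In teeth some of them mark odontoblasts, the cells that lay down dentin, and in bone some mark osteoblasts and osteocytes. Their genes lie next to each other, beside Sparcl1, and are held to have arisen by duplication.

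On GRCm38 the 5 genes lie on the plus strand of chromosome 5 within 270.3 kb, in the order Dspp (104170712 to 104180127), Dmp1 (104202613 to 104214102), Ibsp (104299171 to 104311469), Mepe (104325329 to 104338611) and Spp1 (104435118 to 104441050). The site by which the proteins bind integrins is shown first, because it is the feature that gives the family its name. In each of the 5 longest coding transcripts of GENCODE M21, exactly 1 in-frame site encoded Arg-Gly-Asp. It is in capitals below, with 12 coding bases on each side:
Dspp: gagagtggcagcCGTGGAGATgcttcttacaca
Dmp1: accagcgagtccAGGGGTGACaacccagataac
Ibsp: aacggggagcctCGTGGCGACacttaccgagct
Mepe: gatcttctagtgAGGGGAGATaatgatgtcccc
Spp1: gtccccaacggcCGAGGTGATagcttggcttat
These stretches lie on the plus strand at chr5:104177195-104177227 (Dspp, exon 5), chr5:104212495-104212527 (Dmp1, exon 6), chr5:104310463-104310495 (Ibsp, exon 7), chr5:104337530-104337562 (Mepe, exon 3) and chr5:104439469-104439501 (Spp1, exon 7). The 5 sites used 5 different spellings of the same 3 amino acids. They started at codon 479 of 945 in Dspp, 350 of 503 in Dmp1, 293 of 324 in Ibsp, 183 of 441 in Mepe and 145 of 295 in Spp1.

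The members differed in how much of their coding sequence stands for serine, the residue that is phosphorylated. Serine codons made up 36.4% of Dspp, 22.9% of Dmp1, 17.3% of Spp1, 14.1% of Mepe and 8.02% of Ibsp. Dspp, whose protein is cut into dentin sialoprotein and dentin phosphoprotein, held 104 in-frame runs of Ser-Ser-Asp codons, and the other 4 genes held 0. The stretch of 180 bases densest in these runs is shown because it is the repeat that sets Dspp apart from the other members in sequence. It lies at chr5:104178239-104178418 in exon 5, on the plus strand, and its 20 runs fill it, so all of it is in capitals:
Dspp repeat: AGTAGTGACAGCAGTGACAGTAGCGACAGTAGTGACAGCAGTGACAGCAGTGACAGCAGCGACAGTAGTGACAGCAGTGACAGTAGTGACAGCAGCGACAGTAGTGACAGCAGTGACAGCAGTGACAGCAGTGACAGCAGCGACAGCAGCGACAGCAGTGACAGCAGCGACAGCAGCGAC
Of 4382 windows of 50 bases in the Dspp transcript, 110 (2.51%) occurred more than once within it, and 0 were shared with transcripts of other genes. The other 4 members had 0 repeated windows. Spp1 shared 28 of its 1362 windows with Gm42793, an annotation of uncertain status that lies inside it and had 14 and 0 counts in KO 1 and KO 2 and 2 and 6 in WT 1 and WT 2. How reads with several matches were handled is not given in the sources used here, and its part in the Dspp and Spp1 counts was not tested.

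The libraries held 19142757 and 17770831 counts in KO 1 and KO 2, and 15154246 and 15394782 in WT 1 and WT 2. A count of 3 stood for 0.154 to 0.209 CPM (counts scaled to a common library size, with TMM factors), for counting error only. Paxip1, the gene of PTIP, had 5.69 and 3.98 CPM in KO 1 and KO 2, against 28.3 and 44.3 CPM in WT 1 and WT 2. Its counts cover all exons, including any outside the deleted part. The labelled tissue was dental pulp, yet the enamel gene Ambn reached 31001 and 41111 CPM in KO 1 and KO 2, and 52583 and 18171 CPM in WT 1 and WT 2. All 11 ameloblast and epithelial markers were detected. Ptprc, the gene of CD45, was also present, at 39.2 and 9.25 CPM in KO libraries and 140 and 144 CPM in WT libraries. Tek, the gene of Tie2, had 44.8 and 41.8 CPM in KO libraries and 21.7 and 81.2 CPM in WT libraries. Of the erythroid markers, Hba-a1 had 38.2 and 38.1 against 180 and 166 CPM, and 5 of 5 were lower in both KO, against 24.9% of all tested genes. In such bulk samples, fewer cells of a type and less RNA per cell cannot be told apart.

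Dspp was the member with the largest distance between the groups, and the one whose groups did not overlap. It had 459 and 13 counts in KO 1 and KO 2, against 377 and 3834 in WT 1 and WT 2. In CPM these were 23.5 and 0.729 in KO libraries, against 26.2 and 244 in WT libraries. The gap between the groups was narrow: the exact 95% Poisson interval of KO 1 (21.4 to 25.8 CPM) overlapped that of WT 1 (23.6 to 29.0 CPM). KO 2 lay far below and WT 2 far above these 2 libraries. Dspp thus averaged 12.1 ± 16.1 CPM in KO and 135 ± 154 CPM in WT (SD, n = 2 each).

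The fitted log2 fold change of Dspp, KO over WT, was -3.47 (SE 1.52, 95% interval -7.08 to 0.13), an 11.1-fold lower level in KO that did not pass edgeR's quasi-likelihood test (adjusted p = 0.306). Of the 17128 genes tested, 0% passed it at an adjusted p of 0.05. Dspp was the 1 of 5 members lower in both KO than in both WT libraries, as 24.9% of all tested genes were, and 0 of 5 members were higher in both, as 25.8% of all tested genes were. No member had an unadjusted p under 0.05, against 7.32% of tested genes on the higher and 9.89% on the lower side. DESeq2 called 0 of 5 members, against 2.72% of genes called higher and 5.69% called lower, and limma-voom called 0 of 5. Single libraries decided the value of Dspp. It was -7.51 without KO 1 (adjusted p = 7.6e-07 in edgeR, in a fit that called 3.69% of genes lower) and -4.29 without WT 1 (adjusted p = 0.0374, with 1.12% of genes called lower). It was -1.18 without WT 2 and -2.48 without KO 2, and passed in neither (adjusted p = 0.670 and 0.278). Without the low-count filter it passed (adjusted p = 6.9e-11, with 3.2% of genes called lower), but that fit estimated infinite prior degrees of freedom, so a gene's own spread did not enter its p.

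**Figure D1:**
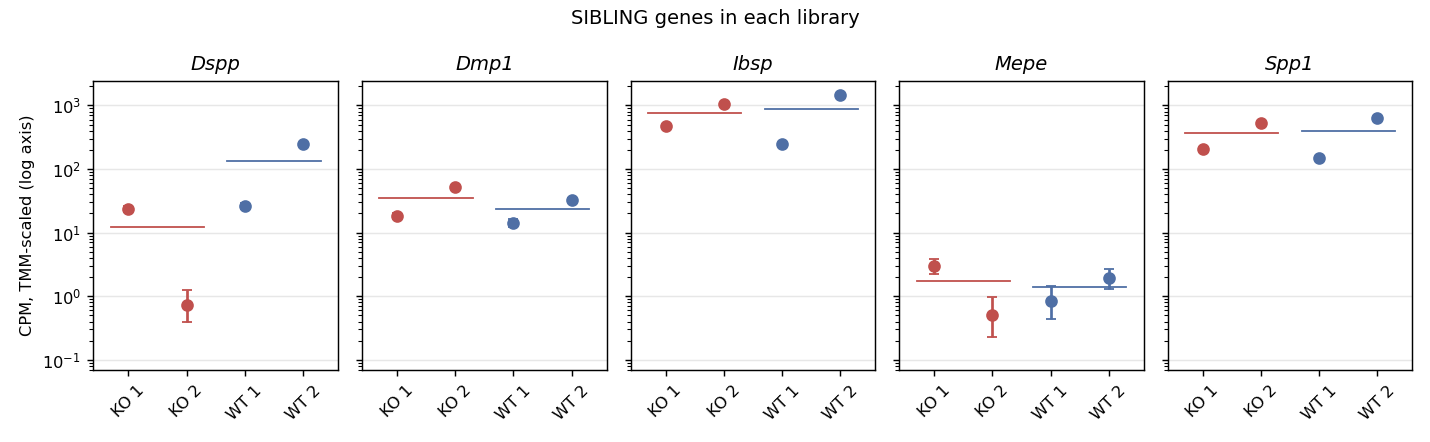
TMM-scaled CPM (log axis) of the 5 genes in KO 1, KO 2, WT 1 and WT 2. Points are libraries with exact 95% Poisson intervals (counting error only) and horizontal lines are group means; Dspp spans 0.729 to 244 CPM, whereas Ibsp, Spp1 and Dmp1 are higher in KO 2 than KO 1 and higher in WT 2 than WT 1.

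Presecretory ameloblasts also transcribe Dspp for a short time, so epithelial genes are given beside it. Amelx, the main enamel matrix gene, stood at 2395 and 80.0 CPM in KO 1 and KO 2 and at 7421 and 2410 CPM in WT 1 and WT 2. Enam stood at 970 and 77.2 CPM in KO libraries and 1413 and 1498 CPM in WT libraries, and the enamel protease gene Mmp20 at 40.1 and 2.07 against 126 and 83.9 CPM. These 3 genes, like Dspp, were lowest in KO 2 and lower in both KO than in both WT libraries, but Amelx and Mmp20 were lower in WT 2 than in WT 1, where Dspp was higher. Ambn, Odam, Krt14 and Krt5 were higher in KO 2 than in KO 1. The summed epithelial list was 34941 and 42076 CPM in KO libraries and 63726 and 22896 CPM in WT libraries, with Ambn as its largest term. Of its 11 members 7 were lower and 0 higher in both KO, against 24.9% and 25.8% of all tested genes. In edgeR 0 passed, as 0% of all tested genes did, and DESeq2 called 2 lower, against 5.69% of all genes. The part of the epithelial genes in the Dspp result was not tested. Leukocyte markers had summed levels of 313 and 94.8 CPM in KO libraries, against 2273 and 756 CPM in WT libraries, with Cd79a the largest term in WT 1 at 1744 CPM. Of 6 tested leukocyte markers 4 were lower in both KO, against 24.9% of all tested genes. S100a8 and S100a9 overlapped, and Cd3e was at 0 in all 4 libraries. Of the leukocyte markers 0 passed edgeR, and DESeq2 called 3 lower, against 5.69% of all genes.

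Ibsp and Spp1 were the abundant members, and their levels differed more between libraries of a group than between the groups. Ibsp, which encodes bone sialoprotein, a nucleator of hydroxyapatite, had 9176 and 18906 counts in KO 1 and KO 2, and 3601 and 23274 in WT 1 and WT 2. In CPM these were 470 and 1060 in KO libraries and 250.4 and 1481 in WT libraries. The WT libraries enclosed both KO libraries. The group means were 765 ± 417 CPM in KO and 866 ± 870 CPM in WT (SD, n = 2 each), and WT 2 was 5.92-fold above WT 1. The log2 fold change of Ibsp, KO over WT, was -0.18 (SE 0.79, 95% interval -2.05 to 1.70, adjusted p = 0.944 in edgeR).

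Spp1 encodes osteopontin, which inhibits crystal growth, binds integrins and CD44, and is also made by macrophages and other cells. It had 4017 and 9445 counts in KO 1 and KO 2, and 2167 and 9993 in WT 1 and WT 2. In CPM these were 206 and 529 in KO libraries and 151 and 636 in WT libraries, in the same order as Ibsp. WT 1 was the lowest and WT 2 the highest library for both genes. The group means of Spp1 were 368 ± 229 CPM in KO and 393 ± 343 CPM in WT (SD, n = 2 each). Its log2 fold change was -0.10 (SE 0.72, 95% interval -1.81 to 1.61, adjusted p = 0.968 in edgeR). The intervals of Ibsp and Spp1 include differences of over 1 log2 unit in either direction. Both genes changed sign with a library left out, to 1.59 for Ibsp and 1.27 for Spp1 without WT 2, and to 0.30 and 0.44 without KO 1.

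Macrophages and osteoclasts were looked for because both cell types make Spp1. All 9 macrophage markers were tested, with summed levels of 141 and 92.8 CPM in KO libraries and 240 and 163 CPM in WT libraries. Csf1r, the receptor gene that defines the macrophage lineage, had 7.23 and 4.32 CPM in KO libraries and 17.2 and 13.3 CPM in WT libraries. Of the 9 macrophage markers 5 were lower in both KO, against 24.9% of all tested genes. Of 7 osteoclast markers, Ocstamp and Atp6v0d2 were at 0 in all libraries, and Dcstamp had 0 counts in both KO libraries and 24 and 1 counts in WT 1 and WT 2. The summed osteoclast list, mostly Ctsk and Acp5, which mesenchymal cells also express, stood at 342 and 389 CPM in KO libraries and 232 and 347 CPM in WT libraries. Its 4 tested members overlapped between the groups, as 8455 of all 17128 tested genes did. The part of either cell type in the Spp1 values was not tested.

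Dmp1 encodes dentin matrix protein 1, which young odontoblasts and osteocytes secrete and whose loss disturbs phosphate balance and dentin. It had 354 and 918 counts in KO 1 and KO 2, and 203 and 512 in WT 1 and WT 2. In CPM these were 18.1 and 51.4 in KO libraries and 14.1 and 32.6 in WT libraries. The groups overlapped, with KO 2 the highest and WT 1 the lowest library. The means were 34.8 ± 23.6 CPM in KO and 23.4 ± 13.1 CPM in WT (SD, n = 2 each), with a log2 fold change of 0.57 (SE 0.63, 95% interval -0.91 to 2.06, adjusted p = 0.706 in edgeR). It was -0.32 without KO 2, 0.11 without WT 1, 1.15 without KO 1 and 1.28 without WT 2.

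Mepe, the gene of matrix extracellular phosphoglycoprotein, a product of osteocytes and odontoblasts with an acidic peptide that inhibits mineralization, was the least abundant member by mean CPM. It had 58 and 9 counts in KO 1 and KO 2, and 12 and 30 in WT 1 and WT 2, which is 2.97 and 0.504 CPM in KO libraries and 0.834 and 1.91 CPM in WT libraries. The KO libraries enclosed the WT libraries. The log2 fold change was 0.34 (SE 1.18, 95% interval -2.46 to 3.14, adjusted p = 0.926 in edgeR), and this interval holds differences of several fold in either direction. The counting intervals of KO 1 (2.26 to 3.84 CPM) and KO 2 (0.231 to 0.958 CPM) did not overlap. The other osteocyte markers ranged widely. Sost, the gene of sclerostin, had 19 and 0 counts in KO 1 and KO 2 and 0 and 16 in WT 1 and WT 2, and Fgf23 had 0 and 1 against 0 and 8. Irx5 had 28.9 and 14.4 CPM in KO libraries and 3.89 and 7.001 CPM in WT libraries, Fbln7 had 11.4 and 13.6 against 30.5 and 25.1 CPM, and Pdpn had 56.4 and 64.6 against 36.6 and 66.5 CPM. Phex is given with the enzymes. The summed osteocyte list of 6 genes, of which 5 were tested, stood at 99.99 and 97.6 CPM in KO libraries and 76.6 and 123 CPM in WT libraries.

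**Figure D2:**
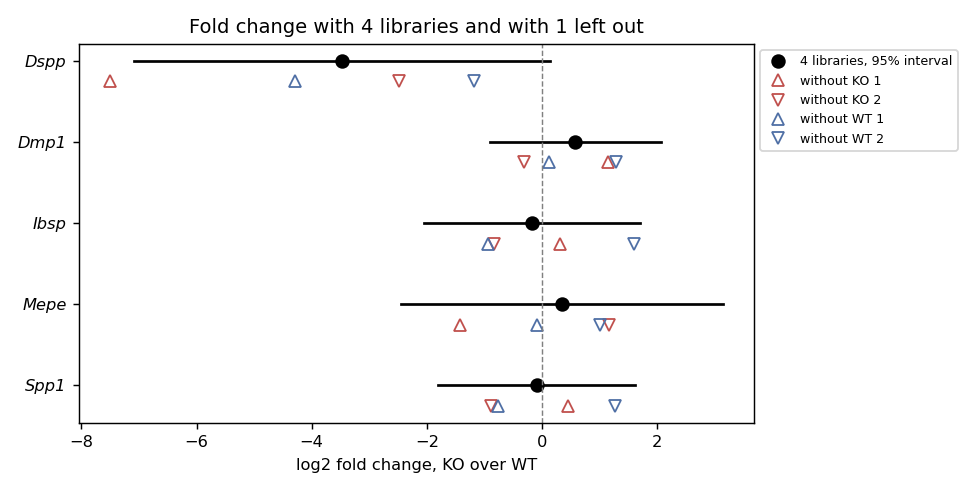
Log2 fold changes, KO over WT, of the 5 genes, with all 4 libraries (filled circles with 95% intervals from edgeR) and with 1 library left out (open triangles). Dspp ranges from -7.51 to -1.18 with 1 library left out, and the triangles of each of the other 4 genes lie on both sides of 0.

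The levels per length gave the make-up of the family within each library, which does not depend on the scaling between libraries. In CPM per kb of exon, Ibsp held 62.1% and 60.1% of the summed level of the 5 genes in KO 1 and KO 2, and 54.0% and 61.2% in WT 1 and WT 2. Spp1 held 34.1% and 37.7% in KO libraries and 40.8% and 33.0% in WT libraries. Together these genes thus made up most of the family's RNA in each library, while the summed level itself was 366 and 853 CPM per kb in KO libraries and 224 and 1170 CPM per kb in WT libraries. Dspp held 1.45% and 0.0193% in KO 1 and KO 2, against 2.64% and 4.71% in WT 1 and WT 2. Dmp1 held 1.79% and 2.18% in KO libraries and 2.28% and 1.01% in WT libraries, and Mepe under 1% in each. By counts, the Dspp share of 3.26% in KO 1 had an exact 95% binomial interval of 2.98% to 3.57%, and that of 5.93% in WT 1 one of 5.36% to 6.54%. These intervals treat PCR copies as separate molecules. The level of Dspp itself was close in these libraries (23.5 CPM in KO 1 and 26.2 CPM in WT 1, with overlapping counting intervals). The summed level that divides it was 366 CPM per kb in KO 1 and 224 CPM per kb in WT 1.

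Among protein-coding genes ranked per kb, Ibsp stood at places 166 and 44 in KO 1 and KO 2 and at 380 and 25 in WT 1 and WT 2. Dspp stood at places 6685 and 14009 in KO libraries and 6315 and 770 in WT libraries. Set against Ibsp per kb in the same library, Dspp was at 2.33% and 0.0321% of its level in KO 1 and KO 2, and at 4.89% and 7.69% in WT 1 and WT 2. In KO 1 and WT 1 Dspp stood at 5.31 and 5.92 CPM per kb, and Ibsp at 227 and 121 CPM per kb. Spp1 was at 54.9% and 62.7% of the Ibsp level in KO libraries and 75.5% and 53.9% in WT libraries. An exact two-sided permutation test over 2 against 2 libraries cannot go below p = 0.333. The log2 ratio of Dspp to Ibsp reached that smallest value (difference -4.48, exact p = 0.333), and those of Dmp1, Mepe and Spp1 gave exact p = 1 (differences 0.30, -0.26 and -0.12). Adjusted over the 4 ratios, each p was 1.

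**Figure D3:**
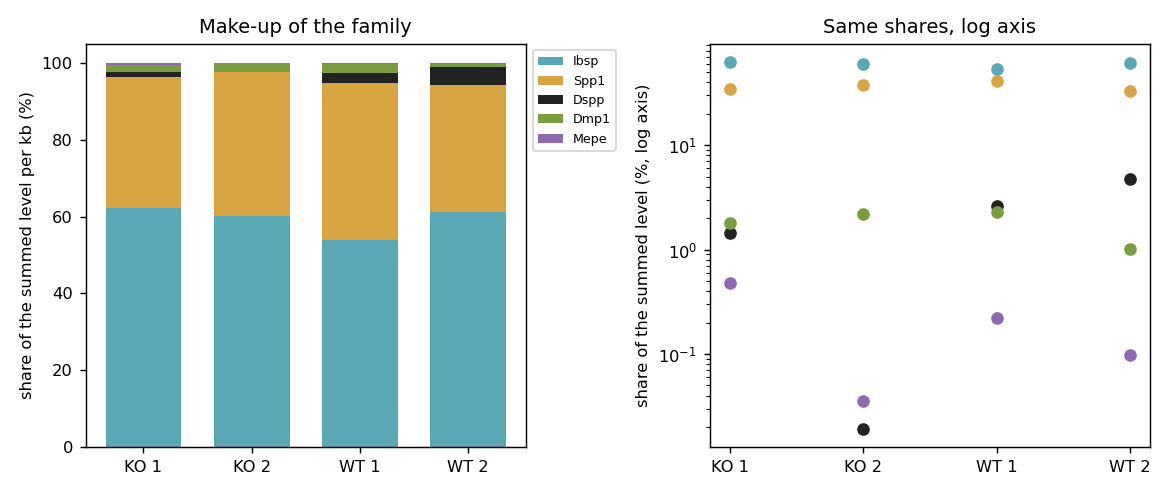
Share of each gene in the summed level per kb of the 5 genes in KO 1, KO 2, WT 1 and WT 2, stacked on a linear axis (left) and as points on a log axis (right). Ibsp and Spp1 fill over 90% of each bar, and the Dspp share (black) is 0.0193% to 1.45% in KO and 2.64% to 4.71% in WT.

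The members differed in how the libraries of a group ranked. Ibsp, Spp1 and Dmp1 were each higher in KO 2 than in KO 1 and higher in WT 2 than in WT 1, as 28.1% of all tested genes were and as 9 of 13 tested genes of other mineralizing cells were. Among these, Col1a1, the gene of the main collagen of bone and dentin, stood at 14440 and 24543 CPM in KO 1 and KO 2 and 17241 and 38662 CPM in WT 1 and WT 2. Over all 4 libraries, WT 2 was the highest for Ibsp and Spp1 and KO 2 for Dmp1. Mepe was higher in KO 1 than in KO 2, and Dspp was 9.31-fold higher in WT 2 than in WT 1 while KO 2 held a small fraction of the KO 1 level. Distances between patterns were taken over the 4 libraries on centred log2(CPM + 1) values. The distance between Ibsp and Spp1 was 0.39, and 1 of 10089 genes compared was nearer to Ibsp than Spp1 was. Seen from Spp1, all 5 of its nearest genes named below (0.13 to 0.33) were nearer to it than Ibsp was. The genes compared had a mean of at least 10 CPM and lay outside the member, partner and marker lists. The distance of Dmp1 was 0.77 from Spp1 and 1.05 from Ibsp, and 400 and 1398 of the genes compared were nearer to Dmp1 than these members were. Dspp was 4.47 or more from each other member.

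The genes nearest to each pattern among these 10089 are given as a description over 4 libraries. Genes of the member, partner and marker lists were left out beforehand, so a listed gene may lie nearer than those named. Nearest to Dspp was Chodl at a distance of 0.79, with 38.3 and 2.298 CPM in KO 1 and KO 2 and 80.0 and 357 CPM in WT 1 and WT 2. Mybpc2, Angptl7, Reln and Xist followed at 1.77 to 1.92, and 0 genes lay within 0.5. Xist is transcribed from the inactive X chromosome of females, and with 116 and 5.83 CPM in KO 1 and KO 2 and 58.3 and 211 CPM in WT 1 and WT 2 it was lowest and highest in the same libraries as Dspp. The Y-linked Ddx3y stood at 1.999 and 117 CPM in KO libraries and 43.1 and 8.85 CPM in WT libraries. KO 1 was thus high in Xist and low in Ddx3y, KO 2 the reverse, and WT 1 held both, so the libraries differed in sex make-up. The part of sex in the Dspp values was not tested. Nearest to Ibsp were Rasal2, Mtmr1, Thsd4, Map6 and Mmp13 (0.36 to 0.55). Mmp13, a collagenase of bone and cartilage matrix, had 277 and 659 CPM in KO 1 and KO 2 and 162 and 596 CPM in WT 1 and WT 2. Nearest to Spp1 were Rasal2, Lvrn, Musk, Vash2 and Gm12216 (0.13 to 0.33), and nearest to Dmp1 were C1qtnf1, Sestd1, Gucy1b1, Bahcc1 and Atrn (0.13 to 0.24). For Mepe they were Igfbp3, Spon1, mt-Cytb, mt-Nd6 and mt-Nd2 (0.16 to 0.25), with 3 mitochondrial genes among them, and its pattern rests on 9 to 58 counts per library.

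The 250 bases before the RefSeq starts of Ibsp, Spp1, Dmp1 and Mepe are shown with the motifs searched in them (GRCm38.p6, plus strand). For Dmp1 and Spp1 the table gave 2 starts each, and the one nearest to the GENCODE start is used. The RefSeq starts of Ibsp and Dmp1 lie downstream of the GENCODE starts given above, so these stretches run into the genes as placed there. The table gave no entry for Dspp. Capitals mark the motifs searched on both strands: ACCACA, bound by RUNX factors, TAATTA, bound by homeodomain factors, the TATA box TATAAA, and CCAAT:
Ibsp chr5:104299037-104299286: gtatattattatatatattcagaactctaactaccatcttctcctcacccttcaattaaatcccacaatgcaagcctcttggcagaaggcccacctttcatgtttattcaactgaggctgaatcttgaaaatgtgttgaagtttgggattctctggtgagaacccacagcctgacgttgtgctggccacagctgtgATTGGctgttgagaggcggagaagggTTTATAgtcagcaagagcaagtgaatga
Spp1 chr5:104434861-104435110: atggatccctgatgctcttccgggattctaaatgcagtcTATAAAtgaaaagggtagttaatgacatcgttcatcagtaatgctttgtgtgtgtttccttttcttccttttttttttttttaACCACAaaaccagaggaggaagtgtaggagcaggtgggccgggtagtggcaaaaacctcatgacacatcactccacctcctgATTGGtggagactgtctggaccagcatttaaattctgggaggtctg
Dmp1 chr5:104202367-104202616: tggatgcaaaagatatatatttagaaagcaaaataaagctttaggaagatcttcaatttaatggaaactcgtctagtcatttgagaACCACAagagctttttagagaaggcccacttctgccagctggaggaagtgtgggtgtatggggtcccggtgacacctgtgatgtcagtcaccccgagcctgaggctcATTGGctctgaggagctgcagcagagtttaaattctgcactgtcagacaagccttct
Mepe chr5:104325079-104325328: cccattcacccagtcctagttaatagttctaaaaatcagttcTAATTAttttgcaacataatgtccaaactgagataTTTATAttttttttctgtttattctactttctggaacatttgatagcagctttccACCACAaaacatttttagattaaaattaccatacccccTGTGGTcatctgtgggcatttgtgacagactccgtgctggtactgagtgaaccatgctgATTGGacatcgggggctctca
All 4 held CCAAT on the minus strand (read as ATTGG) once, with its first base 54 bases before the start in Ibsp, 46 in Spp1, 57 in Dmp1 and 21 in Mepe, as 33.8% of 32851 promoters of this length held it on either strand. ACCACA or its reverse was found once in Spp1 and Dmp1 and 2 times in Mepe, against 14.0% of promoters with a match. TATAAA or its reverse was found once each in Ibsp, 28 bases before the start, in Spp1 and in Mepe (12.4% of promoters). TAATTA was found once, in Mepe (4.84% of promoters). No 2 of the motifs overlapped in these stretches. Mepe thus held all 4 motifs and Ibsp 2 of them. These are matches of letters and describe no bound factor, and their part in the levels or library order of the genes was not tested.

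The genes around the cluster did not share the Dspp values. Within 500 kb of its ends, 23 other genes were annotated and 12 were tested, of which 3 were lower and 2 higher in both KO, against 24.9% lower and 25.8% higher over all tested genes, and 0 passed edgeR. Sparcl1, the relative next to Dspp, stood at 365 and 690 CPM in KO 1 and KO 2 and 339 and 876 CPM in WT 1 and WT 2 (log2 fold change -0.20, adjusted p = 0.898 in edgeR). Its order of libraries was that of Ibsp. Pkd2, on the other side of Spp1, stood at 22.6 and 29.8 CPM in KO libraries and 15.2 and 30.6 CPM in WT libraries. The tested neighbour with the smallest p was Aff1, the gene of a transcription elongation factor, at 32.2 and 26.5 CPM in KO libraries against 99.0 and 77.4 CPM in WT libraries (adjusted p = 0.161 in edgeR). The others lower in both KO were Hsd17b11 and Zfp951, and those higher in both were Gm26703 and D930016D06Rik. Klhl8, Hsd17b13, Gm43545, Nudt9 and Abcg3 overlapped between the groups.

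**Figure D4:**
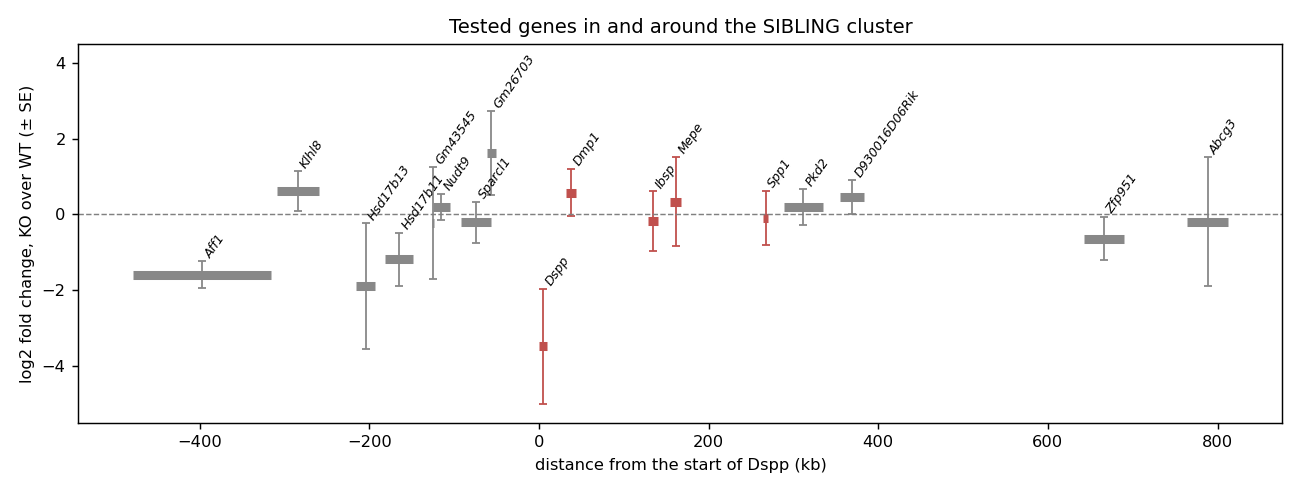
Log2 fold change, KO over WT (± SE from edgeR), of the 17 tested genes in and around the cluster, placed by distance from the start of Dspp in kb, with bar widths to scale. The 5 SIBLING genes are red and neighbours grey; Dspp lies at -3.47 and the other 4 members between -0.18 and 0.57.

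Enzymes that act on the SIBLING proteins included the kinase pathway that phosphorylates them. Fam20c, the secretory kinase for their Ser-x-Glu sites, had 51.4 and 22.5 CPM in KO 1 and KO 2, against 114 and 101 CPM in WT 1 and WT 2, and its partner Fam20a had 20.6 and 13.2 against 47.2 and 76.5 CPM. The groups of both genes did not overlap. Neither passed edgeR (log2 fold changes -1.54 and -1.87, adjusted p = 0.188 and 0.163), and both passed DESeq2 (adjusted p = 0.0253 and 0.00403). Fam20c was at -2.25 without KO 1 and -1.02 without KO 2. Mmp3, a matrix protease that cuts osteopontin, had 16.9 and 2.52 CPM in KO libraries against 110.1 and 166 CPM in WT libraries. Its log2 fold change was -3.83 (SE 0.85, adjusted p = 0.161 in edgeR and 2.1e-06 in DESeq2), with -5.76 without KO 1 and -2.99 without KO 2. Phex, the endopeptidase that cuts the acidic peptide of MEPE, had 2.31 and 4.93 CPM in KO libraries against 5.56 and 22.4 CPM in WT libraries (adjusted p = 0.284 in edgeR), and leaving out WT 2 gave -0.64 in place of a log2 fold change of -1.95. On the higher side, Pcolce, which enhances the protease BMP1, had 841 and 981 against 448 and 556 CPM, and Ctsb, a cathepsin gene, 3373 and 4473 against 1956 and 2314 CPM. Neither passed (adjusted p = 0.254 and 0.258 in edgeR).

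Of the 18 tested processing enzymes, 8 were lower and 3 higher in both KO, against 24.9% lower and 25.8% higher over all tested genes. Their median log2 fold change was -0.47, against 0.00 over all tested genes. edgeR called 0 of them, with 2 higher and 6 lower at an unadjusted p under 0.05, against 7.32% and 9.89% of all genes. DESeq2 called 4 lower (Fam20c, Fam20a, Mmp3 and Klk4), against 5.69% of all genes, and limma-voom 0. Mmp20 and Klk4 are enamel genes as well, and they are in the epithelial list given above.

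Cell surface receptors of the SIBLING proteins had a median log2 fold change of -1.02 over 10 genes, of which 4 were lower and 1 was higher in both KO (24.9% and 25.8% of all tested genes). Itga4, an integrin subunit that binds osteopontin and is common on leukocytes, had 13.4 and 5.100 CPM in KO 1 and KO 2, against 70.4 and 43.3 CPM in WT 1 and WT 2 (log2 fold change -2.62, adjusted p = 0.161 in edgeR and 0.000200 in DESeq2). It was at -3.47 without KO 1 and -2.04 without KO 2. Itga9, another osteopontin-binding subunit, had 2.97 and 2.35 against 16.6 and 9.17 CPM. The leukocyte marker sums given above were lower in both KO as well, and their part here was not tested. Itgb1 had 591 and 940 CPM in KO libraries against 244 and 554 CPM in WT libraries, and Itgav, which pairs with it at Arg-Gly-Asp sites, had 42.2 and 66.4 against 29.1 and 46.0 CPM, with overlapping groups. edgeR called 0 of the 10, with 0 higher and 4 lower at an unadjusted p under 0.05 (7.32% and 9.89% of all genes). DESeq2 called 2 lower, Itga4 and Itga9, against 5.69% of all genes, and limma-voom 0.

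The transcription regulators are factors of tooth and bone mesenchyme, several of which act on SIBLING promoters. Of 15 tested, 10 were higher and 3 lower in both KO, against 25.8% higher and 24.9% lower over all tested genes. Their median log2 fold change was 1.12, against 0.00 over all tested genes. Msx2, a homeobox gene of tooth mesenchyme, had 484 and 359 CPM in KO 1 and KO 2, against 87.4 and 81.4 CPM in WT 1 and WT 2 (adjusted p = 0.145 in edgeR and 5.4e-06 in DESeq2). Sp7 itself had 131 and 146 against 43.9 and 60.7 CPM (adjusted p = 0.165 in edgeR and 0.0211 in DESeq2). Whether RNA of the Cre transgene was counted as Sp7 was not tested. Runx2, which acts on the Ibsp and Spp1 promoters, had 68.7 and 89.2 CPM in KO libraries against 38.1 and 54.0 CPM in WT libraries (log2 fold change 0.78, SE 0.36, adjusted p = 0.337 in edgeR). Msx1 had 2912 and 2525 against 725 and 847 CPM. On the lower side, Runx1 had 29.2 and 17.8 against 48.3 and 55.2 CPM, and Atf4 had 156 and 138 against 244 and 196 CPM. edgeR called 0 of the 15, with 7 higher and 1 lower at an unadjusted p under 0.05, against 7.32% and 9.89% of all genes. DESeq2 called 6 higher, among them Msx1, Msx2 and Sp7, against 2.72% of all genes, and limma-voom 0.

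Other genes of mineralizing cells went both ways, with 6 of 13 tested higher and 3 lower in both KO, against 25.8% and 24.9% of all tested genes, and a median log2 fold change of 0.14. Phospho1, a phosphatase of mineralizing vesicles, had 0 and 1 counts in KO 1 and KO 2 and 5 and 0 in WT 1 and WT 2 and was not tested. Panx3, a channel gene, had 24.96 and 37.0 CPM in KO libraries against 4.66 and 8.40 CPM in WT libraries, and Slc20a2, a phosphate transporter gene, 437 and 842 against 195 and 200.2 CPM. Bglap, the osteocalcin gene, had 88.9 and 153 CPM in KO libraries against 165 and 414 CPM in WT libraries, and is uncertain because reads can match its near-identical copy Bglap2. Alpl, the alkaline phosphatase gene, had 294 and 457 against 762 and 575 CPM. edgeR called 0 of the 13, with 5 higher and 1 lower at an unadjusted p under 0.05 (7.32% and 9.89% of all genes). DESeq2 called 2 higher, Panx3 and Slc20a2, against 2.72% of all genes, and limma-voom 0.

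**Figure D5:**
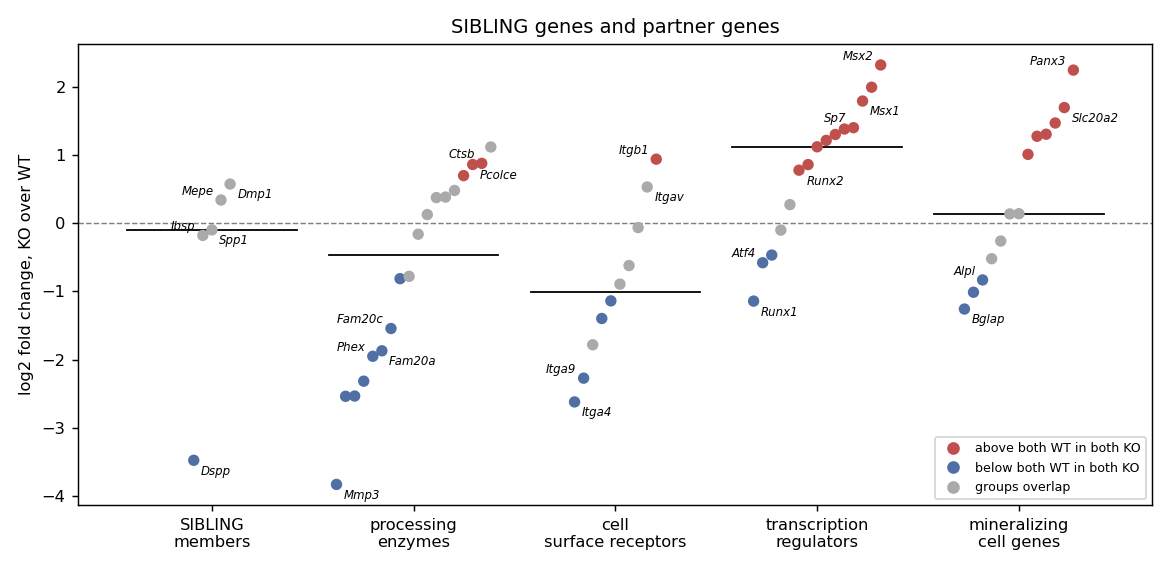
Log2 fold changes, KO over WT (edgeR), of the tested SIBLING genes, processing enzymes, cell surface receptors, transcription regulators and other genes of mineralizing cells. Each point is a gene, coloured by whether both KO libraries lie above or below both WT libraries, black lines are list medians and the dashed line is the median of all 17128 tested genes; the regulators' median is 1.12 and the SIBLING median -0.10.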

How the data were processed

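Polyadenylated RNA of 4 libraries was measured. The authors deposited whole-number counts per Ensembl gene ID, not normalised, in 1 table. Per the labels' protocols, template switching on oligo-dT-primed RNA gave cDNA that was PCR-amplified and fragmented with a kit, so strand and molecules are not marked. Reads of overlapping genes and PCR copies cannot be told apart, and intervals cover counting error only. The build (GRCm38) and the tools (featureCounts 2.0.1, Bowtie2 2.3.5.1 and Trim Galore 0.6.6) are named per the submitters' processing notes. Multi-match handling, strand setting and annotation release were not given in the sources used here. Of 55487 genes, 55227 were found by ID in GENCODE M21, which gave symbols, coordinates and exon lengths. A symbol shared by several IDs went to the ID with the highest total.

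Groups were compared in edgeR 4.0.16 (R 4.3.3) by its two-sided quasi-likelihood F-test, with TMM scaling, filterByExpr (17128 genes kept) and genotype as the only term. Benjamini-Hochberg adjustment ran over all tested genes, with a threshold of 0.05. Standard errors (SE) were taken as the absolute log2 fold change over the square root of F. The script was tested on simulated data. DESeq2 1.42.0, limma-voom (limma 3.58.1), other scalings and filters, a replicate block and leaving out each library were alternatives. Depth was 15154246 to 19142757 counts per library.

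The members, lists and tests were chosen with earlier results of these data known. Named were the 5 members, the 2 genes of lowest p per direction in each partner list, and Runx2, Sp7, Fam20c, Phex and Itgav. Tested neighbours within 500 kb were named too, as were the 5 nearest patterns. The nearest patterns came from genes outside the member, partner and marker lists with a mean of at least 10 CPM. Other genes of cell type markers and those called by DESeq2 were named after their values were seen. Coding features came from GENCODE transcripts and promoters from RefSeq (GRCm38.p6).

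Among further marker lists, 5 of 5 erythroid, 3 of 5 endothelial and 3 of 5 Schwann cell markers were lower in both KO, with 1 Schwann cell marker (Sox10) higher, and 2 of 5 tested chondrocyte markers were lower and 2 higher. Over all tested genes 24.9% were lower and 25.8% higher.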

Additional observations from a re-analysis of the deposited data

How the results depend on the processing

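With 2 libraries per group, single libraries set the size and sign of most member values. With 1 library left out, Dspp ranged from -7.51 to -1.18, Dmp1 from -0.32 to 1.28, Ibsp from -0.93 to 1.59, Mepe from -1.42 to 1.15 and Spp1 from -0.89 to 1.27, so Dspp was the member that kept its sign. These fits take the spread of a lone library from the other group. Dspp passed without the low-count filter (-3.51). Its fold change stayed negative, without passing, under both other scalings, the stricter filter, DESeq2, limma-voom and the replicate block. The stricter filter left out Mepe. In limma-voom, Ibsp changed sign to 0.21, Spp1 to 0.086 and Mepe to -0.011. In the replicate block, Ibsp changed sign to 0.21, Spp1 to 0.092 and Mepe to -0.016. The cause of these changes was not tested. The labels name no pairing, and the deviations of same-numbered libraries from their group means correlated at 0.22.

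Over all genes, edgeR called 0 higher and 0 lower, against 449 and 1005 with no filter on low counts, 472 and 989 by DESeq2 and 59 and 185 with the replicate block. With 1 library left out it called 0 to 215 higher and 0 to 703 lower. Both other scalings, limma-voom and the stricter filter called 0. Without the filter, 31364 genes were tested and 3.2% of them were called lower. DESeq2 tested 17378 and called 2.72% higher and 5.69% lower. Leaving out KO 1 gave 19055 tested genes, and leaving out WT 1 gave 19146. The number tested is not given for the block fit or for the fits without KO 2 or WT 2. List counts from the block fit thus have no share of all genes beside them. Of the SIBLING members, 1 was called without the filter, on the lower side, against 3.2% of all genes. Of the processing enzymes, 4 were called lower with no filter and 4 lower by DESeq2, against 3.2% and 5.69% of all genes. Of the receptors, 2 were called lower without the filter (3.2% of all genes), 2 lower in DESeq2 (5.69%) and 1 lower in the replicate block. Regulators were called on the higher side: 6 without the filter (449 of 31364 genes), 6 in DESeq2 (2.72%) and 2 in the replicate block. Of the mineralizing cell genes, 3 were called higher and 1 lower without the filter, against 449 and 1005 of 31364 genes. DESeq2 called 2 of them higher, against 2.72% of all genes.

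The shares depended on what was summed. From raw counts with no length scaling, the mean share was 64.9% for Ibsp and 2.83% for Dmp1 in KO, 30.4% in KO and 30.3% in WT for Spp1, and 1.65% in KO and 8.06% in WT for Dspp. Without Spp1 in the sum, it was 95.4% in KO and 91.3% in WT for Ibsp, 3.11% in KO and 2.68% in WT for Dmp1, 1.12% in KO and 5.74% in WT for Dspp and 0.259% for Mepe in WT. With 1 library left out a group keeps 1 library, so its share is the value of that library and not a mean. For Dspp these shares were 0.0193% to 1.45% in KO and 2.64% to 4.71% in WT, and for Ibsp 60.1% to 62.1% and 54.0% to 61.2%. For Spp1 they were 34.1% to 37.7% and 33.0% to 40.8%, and for Dmp1 1.79% to 2.18% and 1.01% to 2.28%. For Mepe they were 0.0352% to 0.483% and 0.0970% to 0.221%. The lowest member counts were 9 for Mepe and 13 for Dspp, both in KO 2, and their counting intervals did not overlap those of KO 1.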
